A study of Mus musculus with 8 samples.

Results

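The 10 matrix metalloproteinase genes Mmp2, Mmp3, Mmp7, Mmp9, Mmp10, Mmp11, Mmp13, Mmp14, Mmp19 and Mmp23 were followed across mouse liver mesenchymal cells. They were taken by gene symbol from the 20677 genes named singly on an Affymetrix mouse expression array, on which 16 probe sets carry their names and 0 of those also name another gene. The study measured RNA from 8 samples, 1 array each. Portal fibroblasts (PF), hepatic stellate cells (HSC) sorted as vitamin A-positive, and mesothelial cells (MC) sorted with GPM6A were taken from livers with biliary fibrosis. PF were also taken after a sham operation, and HSC, MC and vitamin A-negative, GFP-positive cells (VitA-GFP+ cells) from mice for which the labels name no injury. Whole liver of a wild-type mouse was the remaining sample. All mice were adults on the C57Bl6 background, and all sorted cells came from Col1a1-GFP transgenic animals, in which a collagen promoter marks collagen-producing cells with GFP. The sources used here do not say how biliary fibrosis was brought about, how PF were gated or how many mice gave each sample. Since every group is a single array, no spread between replicates could be measured, no test was made, and all differences below set 1 array against 1 other.

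Matrix metalloproteinases are zinc-dependent endopeptidases that cut collagens, proteoglycans, basement membrane proteins and many cell surface and secreted proteins. Most are secreted as inactive precursors, are activated by removal of a propeptide, and are held in check by tissue inhibitors of metalloproteinases (TIMPs). In liver fibrosis they are known both for breaking down scar matrix and for remodelling the normal basement membrane-like matrix around stellate cells.

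Mmp13, Mmp3, Mmp10 and Mmp7 lie, in this order and with other family genes between them, in a run of 10 family genes on mouse chromosome 9. Their upstream sequences are shown because these 4 genes differed widely from one another across the arrays. RefSeq windows of the 250 bases before the annotated start were at hand for 7 of the 10 genes. Each of these 4 held 1 copy of the AP-1 letters TGANTCA, which read the same on both strands, in such a window, against 6.75% of all 32851 windows of that length. The AP-1 letters began 35 bases before the start in Mmp13, 46 in Mmp3 and 63 in both Mmp10 and Mmp7. No copy was found in the windows of Mmp11, Mmp14 or Mmp23, a statement about these letters in these windows only. Among the other family genes of the same run, 4 of 6 with a window held it as well. In the 100 bases before the start printed here 5′ to 3′ from RefSeq (build GRCm38.p6), capitals mark the AP-1 letters and the TATA box letters TATAAA, which did not overlap and of which 12.4% of all windows hold a copy on either strand.
Mmp13, chr9:7272414-7272513, plus strand: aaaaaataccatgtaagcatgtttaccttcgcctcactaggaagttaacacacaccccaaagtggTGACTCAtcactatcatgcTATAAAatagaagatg
Mmp3, chr9:7445722-7445821, plus strand: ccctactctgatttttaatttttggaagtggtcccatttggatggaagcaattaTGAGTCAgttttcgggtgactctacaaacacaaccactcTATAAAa
Mmp10, chr9:7502242-7502341, plus strand: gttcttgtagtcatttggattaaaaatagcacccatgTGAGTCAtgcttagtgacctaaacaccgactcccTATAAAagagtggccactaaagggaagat
Mmp7, chr9:7691990-7692089, plus strand: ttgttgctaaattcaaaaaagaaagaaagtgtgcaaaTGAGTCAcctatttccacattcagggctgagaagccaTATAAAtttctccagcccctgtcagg
For Mmp7 the first of its RefSeq starts is printed, and the window of its other start held no AP-1 letters.

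**Figure D1:**
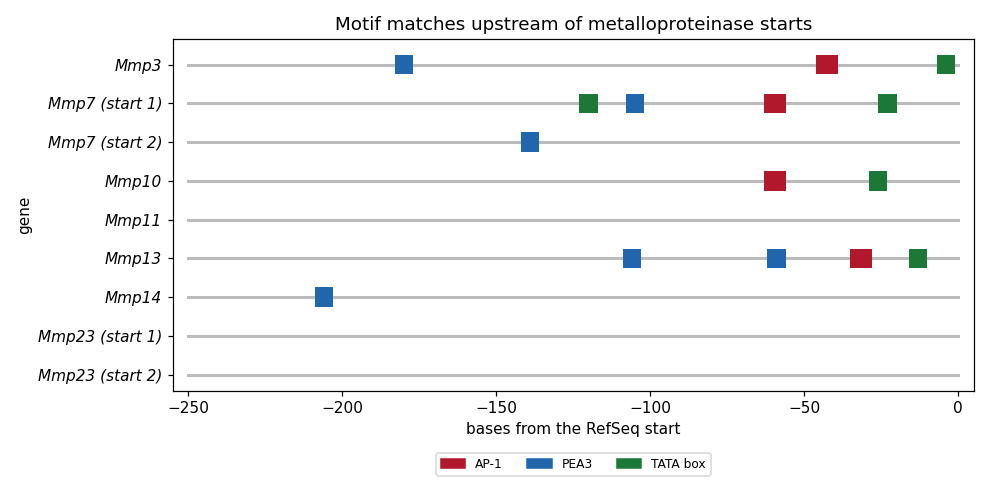
Positions of AP-1 (TGANTCA, red), PEA3 (AGGAAG, blue) and TATA box (TATAAA, green) letters, on either strand, in the 250 bases before each RefSeq start, with the distance from the start on the x axis in bases and 1 line per start. AP-1 letters are seen in Mmp3, Mmp7 (first start), Mmp10 and Mmp13, between 63 and 29 bases before the start, and PEA3 letters, held by 29.5% of all windows, in Mmp3, Mmp7, Mmp13 and Mmp14.

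Levels are given as log2 of the authors' RMA-normalized intensity, from the probe set of each gene with the highest mean over the 8 arrays. Array medians over non-control probe sets lay between 5.31 and 5.68. Levels of different genes come from different probes and are not set against each other. The 4-fold rule asks for a log2 difference of at least 2 in either direction and for the higher of both arrays to lie at or above its median. All 10 genes reached the array median in PF and HSC of biliary fibrosis and 7 in MC of biliary fibrosis, against 7 in sham PF, 6 each in HSC and VitA-GFP+ cells, and 4 each in MC and whole liver. Mmp14, Mmp19 and Mmp23 reached it on all 8 arrays. Of 9 other family genes named singly, 4 each reached it in PF and HSC of biliary fibrosis, 3 in MC of biliary fibrosis and 3 in sham PF. Their count was 3 in HSC, 1 in MC, 4 in VitA-GFP+ cells and 2 in whole liver. The share over all genes was not counted, and the members were chosen with earlier results of these data known. In bulk RNA, fewer cells of a type and less RNA per cell cannot be told apart.

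The labelled cell types carried their markers. HSC markers were at or above the array median for 10 of 10 genes in both HSC arrays, PF markers for 12 of 12 in both PF arrays, mesothelial markers for 11 of 11 in both MC arrays and hepatocyte markers for 10 of 10 in whole liver. These counts alone do not set the arrays apart. HSC markers also reached 10 of 10 in sham PF, VitA-GFP+ cells and whole liver, and mesothelial markers 11 of 11 in VitA-GFP+ cells. PF markers reached 12 of 12 in VitA-GFP+ cells and 11 of 12 in HSC and MC of biliary fibrosis. The median level of each of these lists above the array median was highest in the arrays of its own label. PF of biliary fibrosis also had 13 of 13 cholangiocyte, 10 of 10 hepatocyte and 11 of 11 mesothelial markers at or above the array median. In sham PF these were 4 of 13, 4 of 10 and 8 of 11. Krt19 and Krt7 stand in both the cholangiocyte and the mesothelial list, so the counts of these lists share genes here and below. The 3′ to 5′ signal ratio of Gapdh, a sign of RNA integrity and amplification length, was 10.16 in PF, 5.68 in HSC and 13.79 in MC of biliary fibrosis and 13.22 in sham PF, against 1.42 to 2.01 on the other arrays. These 4 arrays also share a series of sample codes, so the HSC and MC comparisons below cross both the codes and the Gapdh ratios, whereas the PF comparison does not.

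**Figure D2:**
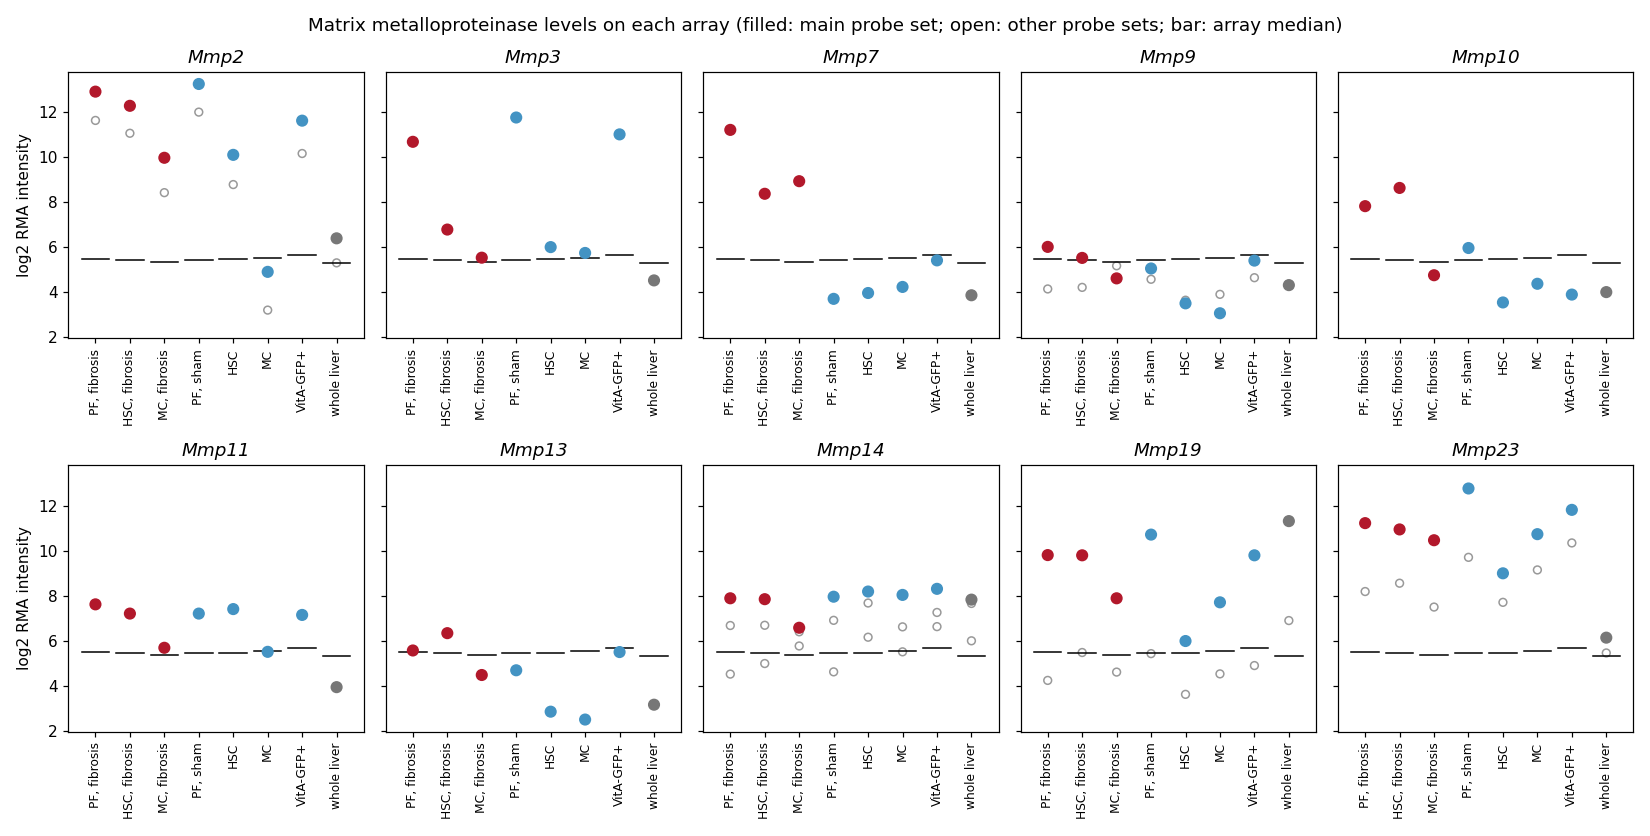
Level of each metalloproteinase on each of the 8 arrays, as log2 RMA intensity on the y axis, with filled points for the main probe set (red, biliary fibrosis; blue, sorted cells without it; grey, whole liver), open points for other probe sets and black bars for the array median. Mmp7 is above the array median in the 3 fibrosis arrays alone, while Mmp3 is high in both PF arrays and the VitA-GFP+ array and the filled points of Mmp14 stay between 6.57 and 8.30.

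The gelatinases, Mmp2 and Mmp9, cut denatured collagen and basement membrane type IV collagen. Mmp2 had log2 levels of 12.92 in PF, 12.29 in HSC and 9.98 in MC of biliary fibrosis, against 13.26 in sham PF, 10.11 in HSC and 4.91 in MC without stated injury, 11.63 in VitA-GFP+ cells and 6.40 in whole liver. It was thus high in every sorted sample except MC without stated injury, where it lay under the array median of 5.52. Its difference in biliary fibrosis was 5.08 in MC and 2.18 in HSC, both past the 4-fold rule, and -0.34 in PF. The other Mmp2 probe set gave 5.22, 2.28 and -0.37 for the same cells in the same order. Against the VitA-GFP+ array instead of sham PF, the PF difference turned to 1.29.

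Mmp9 was at most 0.55 above the array median, in PF of biliary fibrosis, and 2.45 under it (-2.45) in MC without stated injury. Its levels were 6.02 in PF, 5.53 in HSC and 4.62 in MC of biliary fibrosis, against 5.06 in sham PF, 3.51 in HSC and 3.07 in MC without stated injury, 5.41 in VitA-GFP+ cells and 4.32 in whole liver. Only the PF and HSC arrays of biliary fibrosis reached the median of their array. The HSC difference of 2.01 just met the 4-fold rule, its higher array lying at 5.53 with an array median of 5.45, and the differences were 0.96 in PF and 1.55 in MC. The other Mmp9 probe set stayed between 3.65 and 5.18 on all arrays and differed by 0.57 in HSC and -0.43 in PF, so the call rests on 1 probe set. Neutrophils are a cell type known to store Mmp9. Their markers were at or above the array median for 3 of 9 genes in HSC of biliary fibrosis and 1 of 9 in HSC without stated injury. In that pair S100a8 and S100a9 were the 2 that were 4-fold higher. The count was 4 in MC and 2 in PF of biliary fibrosis, 1 in sham PF and 3 in MC without stated injury. It was 2 in VitA-GFP+ cells and 4 in whole liver. The part of neutrophils in the Mmp9 levels was not tested.

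The stromelysins Mmp3 and Mmp10 have broad substrate ranges and can activate other metalloproteinase precursors. Mmp3 had levels of 10.69 in PF, 6.79 in HSC and 5.54 in MC of biliary fibrosis, against 11.77 in sham PF, 6.01 in HSC and 5.75 in MC without stated injury, 11.02 in VitA-GFP+ cells and 4.53 in whole liver. High values therefore came from the PF and VitA-GFP+ arrays, with and without fibrosis. The differences in biliary fibrosis were -1.07 in PF, 0.78 in HSC and -0.21 in MC, none of them 4-fold. Sham PF stood above HSC by 5.75 and above MC by 6.02, and above VitA-GFP+ cells by 0.75.

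Mmp10, from the same run of genes as Mmp3 and with the same AP-1 letters, was distributed otherwise. Its levels were 7.83 in PF, 8.64 in HSC and 4.76 in MC of biliary fibrosis, against 5.97 in sham PF, 3.55 in HSC and 4.38 in MC without stated injury, 3.90 in VitA-GFP+ cells and 4.01 in whole liver. The fibrosis arrays of HSC and PF held the highest values, sham PF came next, and the other 5 arrays were under the array median. The difference in biliary fibrosis was 5.08 in HSC, 1.86 in PF and 0.38 in MC. Sham PF was higher than VitA-GFP+ cells by 2.07, and HSC of biliary fibrosis was higher than sham PF, an array of the same code series, by 2.67.

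Mmp11, a stromelysin that is activated inside the cell by furin, differed more between most sorted cells and whole liver than with fibrosis. It had levels of 7.61 in PF, 7.20 in HSC and 5.68 in MC of biliary fibrosis, against 7.20 in sham PF, 7.40 in HSC and 5.50 in MC without stated injury, 7.14 in VitA-GFP+ cells and 3.93 in whole liver. Both MC arrays were lower than every PF, HSC and VitA-GFP+ array. The differences in biliary fibrosis were 0.42 in PF, -0.21 in HSC and 0.18 in MC.

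Mmp13 is the main interstitial collagenase of mice and cuts intact fibrillar collagen. Its levels were 5.56 in PF, 6.33 in HSC and 4.47 in MC of biliary fibrosis, against 4.68 in sham PF, 2.84 in HSC and 2.49 in MC without stated injury, 5.49 in VitA-GFP+ cells and 3.15 in whole liver. As with Mmp9, the fibrosis arrays of PF and HSC were the ones at or above their array median. The difference was 3.49 in HSC, which met the 4-fold rule, 1.98 in MC with both arrays under their medians, and 0.88 in PF. Across the 8 arrays Mmp13 and Mmp9 had a Pearson r of 0.94, the highest of the 45 pairs of members, which describes arrays that share amplification and normalization. It uses the main Mmp9 probe set only, and both genes reached the array median on just 2 of the 8 arrays.

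Matrilysin, Mmp7, lacks the hemopexin-like domain of most family members, acts on proteoglycans, elastin and cell surface proteins, and is known as a product of epithelia, among them injured bile ducts. Its levels were 11.22 in PF, 8.38 in HSC and 8.94 in MC of biliary fibrosis, against 3.71 in sham PF, 3.97 in HSC and 4.24 in MC without stated injury, 5.42 in VitA-GFP+ cells and 3.87 in whole liver. The 3 fibrosis arrays lay above all 5 others, which were under their array medians. The difference was 7.51 in PF, 4.70 in MC and 4.41 in HSC, the one member that met the 4-fold rule in all 3. Within the shared code series, MC and HSC of biliary fibrosis were above sham PF by 5.23 and 4.67.

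Cholangiocyte markers had median levels above the array median of 4.37 in PF, 0.29 in HSC and 0.07 in MC of biliary fibrosis, against -0.99 in sham PF, -1.58 in HSC, -0.53 in MC, 1.13 in VitA-GFP+ cells and -0.42 in whole liver. Of 13 such markers, 13 in PF, 8 in HSC and 9 in MC of biliary fibrosis were at or above the array median, against 4, 1 and 4 in the same cells without it. Mmp7 was above its array median by 5.74 in PF, 2.93 in HSC and 3.58 in MC of biliary fibrosis. The VitA-GFP+ array had 10 of the 13 markers at that level and Mmp7 at 0.26 under its array median (-0.26). The part of bile duct cells in the Mmp7 levels was not tested.

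Mmp14 and Mmp23 are anchored in the membrane, and Mmp14 is the activator of the Mmp2 precursor on the cell surface. Mmp14 had levels of 7.88 in PF, 7.84 in HSC and 6.57 in MC of biliary fibrosis, against 7.95 in sham PF, 8.18 in HSC and 8.03 in MC without stated injury, 8.30 in VitA-GFP+ cells and 7.82 in whole liver. It varied least among the 10 genes, over a range of 1.73. The largest difference in biliary fibrosis was -1.46 in MC, where the other probe sets gave 0.26 and -0.22.

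Mmp23, a short family member released from the membrane by cleavage, had levels of 11.22 in PF, 10.94 in HSC and 10.46 in MC of biliary fibrosis, against 12.76 in sham PF, 8.99 in HSC and 10.73 in MC without stated injury, 11.81 in VitA-GFP+ cells and 6.13 in whole liver. Every sorted sample was above whole liver, and HSC without stated injury was the lowest of the sorted samples. On the other probe set it was at 7.70, against 7.49 in MC of biliary fibrosis. The differences in biliary fibrosis were 1.94 in HSC, -1.55 in PF and -0.26 in MC, and the other probe set gave 0.85, -1.52 and -1.65.

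Mmp19, a secreted member that cuts basement membrane proteins, was the one gene of the 10 with its highest level in whole liver. Its levels were 9.80 in PF, 9.79 in HSC and 7.88 in MC of biliary fibrosis, against 10.71 in sham PF, 5.98 in HSC and 7.70 in MC without stated injury, 9.79 in VitA-GFP+ cells and 11.31 in whole liver. HSC without stated injury had the lowest value and HSC of biliary fibrosis a value equal to that of VitA-GFP+ cells. The difference was 3.80 in HSC, -0.91 in PF and 0.19 in MC, and the PF difference was 0.01 when VitA-GFP+ cells stood in for sham PF. The other probe set, lower on every array, gave 1.86 in HSC, under the 4-fold rule.

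Taking the cells in turn, PF of biliary fibrosis had 1 of 10 members 4-fold higher than sham PF (Mmp7), where 3.77% of all genes were higher, and 0 lower, where 1.58% were. The median difference of the 10 members was 0.18, against -0.01 over all genes. In the same pair, 10 of 13 cholangiocyte, 8 of 10 hepatocyte, 6 of 11 mesothelial, 6 of 12 macrophage and 6 of 10 proliferation markers were 4-fold higher. Krt19 and Krt7 are counted in both the cholangiocyte and the mesothelial number. PF markers had 0 of 12 higher and 2 lower. Against the VitA-GFP+ array in place of sham PF, 2 members were higher (Mmp7 5.80 and Mmp10 3.93) and 0 lower, where 3.84% of genes were higher and 3.92% lower.

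HSC of biliary fibrosis had 6 of 10 members 4-fold higher than HSC without stated injury (Mmp2, Mmp7, Mmp9, Mmp10, Mmp13 and Mmp19), where 5.9% of all genes were higher, and 0 lower, where 3.13% were. The members' median difference was 2.10, against 0.13 over all genes. Markers of other cells moved in the same pair: 9 of 12 PF markers were higher with a median of 4.04, 9 of 12 macrophage markers with a median of 3.40, 7 of 10 hepatocyte markers with a median of 2.23 and 6 of 13 cholangiocyte markers with a median of 1.14. Of 10 HSC markers, 0 were higher and 1 was lower, with a median of -0.55. Macrophage markers had a median level above the array median of 2.75 in HSC of biliary fibrosis and -0.95 in HSC without stated injury, with 10 of 12 and 2 of 12 at or above the array median. The Gapdh ratios were 5.68 and 1.75 in the same order, and the part of these differences in the metalloproteinase values was not tested.

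Set against sham PF, which belongs to the same code series, HSC of biliary fibrosis had Mmp2 at -0.98, Mmp9 at 0.47, Mmp13 at 1.65, Mmp19 at -0.93 and Mmp23 at -1.83, with Mmp7 and Mmp10 4-fold higher and Mmp3 lower by the same rule (-4.97). In that comparison 2.73% of all genes were higher and 2.98% lower. MC of biliary fibrosis had Mmp7 higher than sham PF and Mmp2 (-3.28), Mmp3 (-6.23), Mmp19 (-2.83) and Mmp23 (-2.30) lower, where 3.77% of genes were higher and 5.39% lower. The other Mmp19 probe set gave -0.82 there. Both comparisons cross cell types as well as injury.

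MC of biliary fibrosis had 2 of 10 members 4-fold higher than MC without stated injury (Mmp2 and Mmp7), where 6.2% of all genes were higher, and 0 lower, where 4.68% were. The median difference was 0.29 for the members and 0.25 over all genes. Macrophage markers were higher for 7 of 12 genes with a median of 2.63, HSC markers for 3 of 10 with a median of 1.55 and hepatocyte markers for 4 of 10 with a median of 1.95. Cholangiocyte markers were higher for 2 of 13 and lower for 1. Of 11 mesothelial markers, 0 were higher and 3 were lower, with a median of -0.81. The Gapdh ratio was 13.79 in MC of biliary fibrosis, against 2.01 in MC without stated injury, and its part in these values was not tested.

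**Figure D3:**
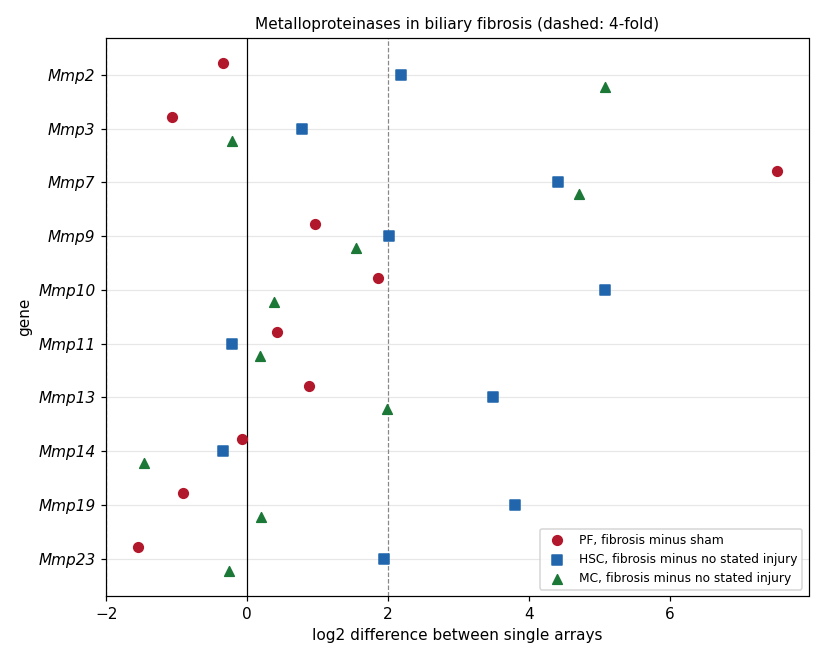
Log2 difference between single arrays (x axis) for each metalloproteinase (y axis), with circles for PF, squares for HSC and triangles for MC, each as biliary fibrosis minus the array of the same cells without it, and a dashed line at 4-fold. Mmp7 is past the line in all 3 cell types, Mmp10, Mmp13, Mmp19 and Mmp9 in HSC alone, and Mmp2 in HSC and MC.

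Between the fibrosis arrays, HSC had 0 members 4-fold higher and 2 lower than PF (Mmp3 by -3.90 and Mmp7 by -2.84), where 1.95% of all genes were higher and 4.1% lower. MC had 0 higher and 4 lower than PF (Mmp3 -5.15, Mmp10 -3.07, Mmp2 -2.94 and Mmp7 -2.28), where 2.22% of genes were higher and 5.74% lower. HSC had 2 members 4-fold higher than MC (Mmp10 by 3.88 and Mmp2 by 2.30), where 5.73% of genes were higher, and 0 lower, where 4.13% were. Mmp14 differed from PF by -0.04 in HSC and by -1.31 in MC. Its other probe sets gave 0.47 and 0.01 in HSC and 1.25 and -0.28 in MC.

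Without fibrosis, each sorted fraction was set against the same whole-liver array. Sham PF and VitA-GFP+ cells each had 4 of 10 members 4-fold higher, namely Mmp2, Mmp3, Mmp11 and Mmp23, and 0 lower. Over all genes, sham PF had 11.0% higher and 10.7% lower. For VitA-GFP+ cells the shares were 10.5% and 7.26%, or 2162 and 1501 genes, against 1759 and 1980 when arrays were shifted to 1 median. In sham PF, Mmp2 differed by 6.86, Mmp3 by 7.24, Mmp11 by 3.27 and Mmp23 by 6.64. The VitA-GFP+ array gave 5.23, 6.49, 3.21 and 5.68 for these genes. In VitA-GFP+ cells Mmp13 differed by 2.33, at 5.49 against 3.15 in whole liver, and was not counted because 5.49 lies under the array median of 5.68. Without a minimum level VitA-GFP+ cells had 5 members higher. The sham PF, VitA-GFP+ and whole-liver arrays carry sample codes of 3 different series, with Gapdh ratios of 13.22, 1.56 and 1.42.

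HSC had 3 members higher than whole liver (Mmp2 3.71, Mmp11 3.47, Mmp23 2.86), where 8.55% of genes were higher, and 1 lower (Mmp19 -5.33), where 11.0% were. MC had Mmp23 higher (4.60), where 8.78% of genes were higher, and Mmp19 lower (-3.62), where 11.4% were. Mmp7, Mmp9, Mmp10 and Mmp14 differed from whole liver by less than 2 in all 4 fractions. The comparisons share the whole-liver array, so its own level enters all of them.

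Among the fractions without fibrosis, sham PF held the highest levels of Mmp2, Mmp3, Mmp10, Mmp19 and Mmp23, although the other Mmp23 probe set gave 9.70 there, against 10.34 in VitA-GFP+ cells. All 5 were 4-fold higher in sham PF than in HSC (Mmp3 5.75, Mmp19 4.73, Mmp23 3.77, Mmp2 3.15, Mmp10 2.42), where 7.94% of genes were higher, and 0 members were lower, where 4.71% were. The other probe sets gave 1.80 for Mmp19, under the 4-fold rule, 2.00 for Mmp23, at its edge, and 3.22 for Mmp2. Against MC, 4 members were higher in sham PF (Mmp2 8.35, Mmp3 6.02, Mmp19 3.02, Mmp23 2.04), where 7.78% of genes were higher, and 0 lower, where 5.09% were. The other probe sets gave 0.89 for Mmp19 and 0.56 for Mmp23, so both calls rest on 1 probe set, and 8.80 for Mmp2. Sham PF and VitA-GFP+ cells both carry 12 of 12 PF markers. The VitA-GFP+ array also had 10 of 10 endothelial, 11 of 11 mesothelial, 8 of 8 smooth muscle and 10 of 12 macrophage markers at or above its median. Of these lists, in the same order, 9, 8, 7 and 9 markers were 4-fold lower in sham PF and 0 were higher. Sham PF and VitA-GFP+ cells had 1 member 4-fold apart, Mmp10, higher in sham PF (2.07), where 1.97% of genes were higher. There were 0 members lower, where 3.84% of genes were. In that pair another probe set of Mmp14 gave -2.01, against -0.36 for its main one.

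HSC had 0 members higher and 3 lower than VitA-GFP+ cells (Mmp3 -5.01, Mmp19 -3.81, Mmp23 -2.82), where 2.87% of genes were higher and 7.11% lower. MC had 0 members higher and 3 lower than VitA-GFP+ cells (Mmp2 -6.73, Mmp3 -5.27, Mmp19 -2.09), where 2.91% of genes were higher and 6.6% lower. The other Mmp19 probe set gave -1.28 in HSC and -0.37 in MC, both under the 4-fold rule. Between HSC and MC, Mmp2 was the 1 member 4-fold apart, higher in HSC by 5.20, where 4.2% of genes were higher, and 0 were lower, where 4.77% were. All pairs that include sham PF cross the sample codes and the Gapdh ratios. Pairs of HSC, MC or whole liver with VitA-GFP+ cells cross the codes as well, and the part of this in these values was not tested.

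**Figure D4:**
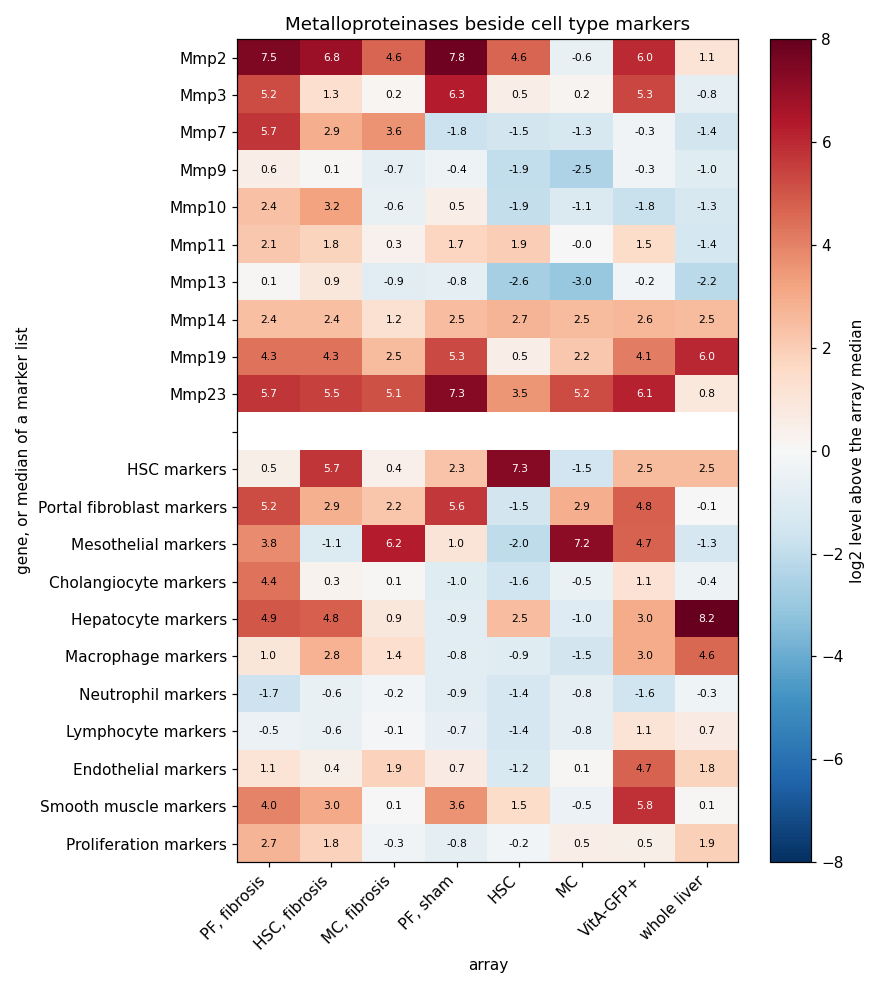
Level above the array median, in log2 units, of each metalloproteinase and of the median of each marker list (rows) on the 8 arrays (columns), red above and blue below the median, for reading along rows. The Mmp7 row is above the array median in the 3 fibrosis columns, and the cholangiocyte row is at 4.37 in PF of biliary fibrosis and at 1.13 or less elsewhere.

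By their main probe sets, 0 of 7 listed inhibitors were 4-fold apart in PF and MC, and 1 was in HSC. That gene was Timp1, which had levels of 9.32 in PF, 10.07 in HSC and 10.16 in MC of biliary fibrosis, against 7.56 in sham PF, 5.19 in HSC, 9.87 in MC, 8.24 in VitA-GFP+ cells and 4.43 in whole liver. Its difference was 4.88 in HSC, 1.77 in PF and 0.29 in MC. HSC without stated injury was thus the low array among the sorted cells for Timp1, as it was for Mmp19 and for the main probe set of Mmp23.

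Timp2, which also takes part in Mmp2 activation by Mmp14, differed by -1.36 in PF, 0.11 in HSC and -1.39 in MC. Its 6 probe sets ran from -2.39 to 0.64 in HSC and from -4.10 to -0.92 in MC. Timp3, which is bound to matrix, differed by -0.11, 1.05 and -0.80 in the order PF, HSC and MC. Its 4 probe sets ran from 0.15 to 1.55 in HSC and from -2.05 to 1.64 in MC, so its direction in MC depends on the probe set. Reck, a membrane-anchored inhibitor, differed by -1.13, -0.26 and -0.50.

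Among 14 proteases that activate metalloproteinase precursors and their partners, HSC had 2 higher, tissue plasminogen activator Plat (5.46, other probe set 2.52) and the protease inhibitor Serpine2 (3.73). PF had 1 lower, the proprotein convertase Pcsk6 (-2.87). MC had plasma kallikrein, Klkb1, lower (-3.06). Urokinase, Plau, stayed between 2.89 and 4.08 on all 8 arrays, under every array median, and its receptor Plaur differed by 0.63 in PF, 1.77 in HSC and 0.54 in MC.

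Of 16 genes listed as inducers of metalloproteinase transcription, 4 were higher in HSC, 3 were higher and 1 was lower in MC, and 0 were 4-fold apart in PF. Fosl1, a subunit of the AP-1 factor, had levels of 8.42 in PF, 10.01 in HSC and 8.73 in MC of biliary fibrosis, against 9.86 in sham PF, 2.35 in HSC, 3.22 in MC, 6.74 in VitA-GFP+ cells and 2.11 in whole liver. All 4 arrays of the shared code series, sham PF included, were above the other 4. The difference was 7.66 in HSC, where its other probe set gave 1.89, 5.51 in MC (other probe set 0.75) and -1.45 in PF. The cytokines Il1a (5.21), Il1b (2.52) and Tnf (2.23) were the other genes higher in HSC, and Tnf (2.65) and the Ets factor Etv4 (4.20, other probe sets down to 1.04) those in MC. Bsg, a surface protein known to induce metalloproteinases in neighbouring cells, was the gene lower in MC (-3.13), and differed by -1.24 in HSC and -0.12 in PF.

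**Figure D5:**
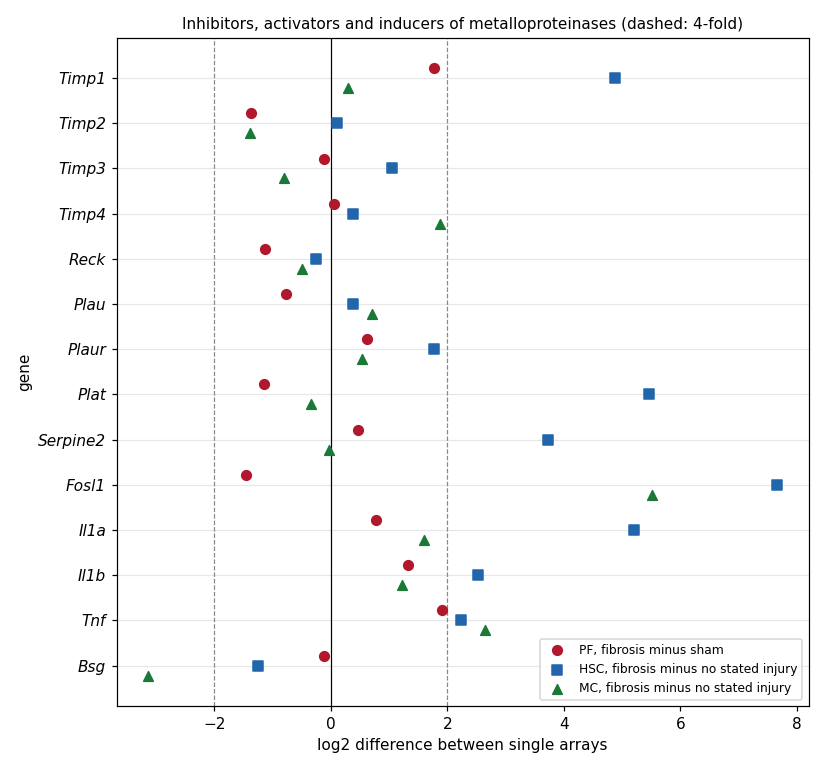
Log2 difference between single arrays (x axis) for inhibitors, plasminogen activators with their partners, and inducers of metalloproteinases (y axis), drawn as circles for PF, squares for HSC and triangles for MC, biliary fibrosis minus the same cells without it, with dashed lines at 4-fold. Timp1, Plat, Serpine2, Fosl1, Il1a, Il1b and Tnf are past the line in HSC, and Fosl1, Tnf and, below 0, Bsg in MC.

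Of 9 other family genes named singly on the array, Mmp15, a membrane-type enzyme, was 4-fold higher in PF of biliary fibrosis (4.91, the other probe set 0.99). Its level was 10.21 in PF of biliary fibrosis, against 5.30 in sham PF, with 8.28 in whole liver. Macrophage elastase, Mmp12, was higher in HSC of biliary fibrosis (3.52), at 7.71 against 4.19 in HSC without stated injury. Macrophage markers were also higher in that pair, as given above. Their median level above the array median was 4.62 in whole liver, 2.99 in VitA-GFP+ cells and 1.37 in MC of biliary fibrosis. Mmp12 lay under the array median on those arrays (-0.53, -0.10 and -0.27). In the PF pair, where 6 of 12 macrophage markers were higher, Mmp12 differed by 2.42, at 4.62 against 2.20, both under their array medians. The MC pair, with 7 of 12 macrophage markers higher, gave 1.15. The part of macrophages in the Mmp12 levels was not tested. Mmp20, an enamel protease, was lower in the HSC pair (-3.15). In MC 0 of the 9 were 4-fold apart.

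For the 6 members called in a fibrosis pair, the 3 genes with the most similar pattern were sought among 10197 genes that varied by at least 2 over the 8 arrays and reached an array median. The r values describe 8 arrays that differ in cell type, injury and RNA quality at once. For Mmp7 they were Ldlrad4 (0.96), Tes (0.95) and Rassf10 (0.95). Mmp10 was followed most closely by Kif26b, Hells and Riok1 (0.97 each). For Mmp2 they were Rasl11b, the chemokine Cx3cl1 and Mboat2 (0.98 each).

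Mmp9 and Mmp13 shared the potassium channel gene Kcnj15 (0.97 and 0.96). The others were the matricellular Ccn5 and Lemd2 for Mmp9 (0.97 each) and Gpr176 and the hyaluronan receptor Cd44 for Mmp13 (0.96 each). For Mmp19 they were the lysosomal protease Ctsh (0.97), Fam20c (0.97) and the growth factor receptor Egfr (0.96).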

How the data were processed

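The deposited intensity values came, per the submitters' processing notes, from RMA normalization that the authors ran in Partek, on Affymetrix mouse arrays hybridised with cDNA amplified from 20 ng of total RNA, per the labels' protocols. Software versions, and whether all 8 arrays were normalized together, are not given in the sources used here. The values are on the linear scale, and log2 was taken. The annotated normalized values and the series matrix values differ by at most 0.

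The 45101 probe sets comprise 64 controls, 38011 with a single gene name, 1280 with several and 5746 without. Symbols were updated through Entrez identifiers and RefSeq. Each gene is represented by its probe set of highest mean, and 5 of the 10 members have more than 1 probe set. Groups follow the sample titles, 1 array each, so single-array differences were called at 4-fold, with the higher array at or above its median. The number of arrays, weak signal and disagreement between probe sets limit precision, and no error can be given. All members are named. Of other lists, genes 4-fold apart are named, with Timp1, Timp2, Timp3, Reck, Plau, Plaur and Bsg always, except for a few that are not reported here. Members, lists and rules were chosen with earlier results of these data known. The calling step was tested on simulated data. Alternatives were quantile normalization, a shift to 1 median, other minimum levels, other probe set rules, a 2-fold rule and another array for PF. Motifs were searched in RefSeq promoter windows. Python 3.11.15, numpy 2.4.6, pandas 2.3.3 and matplotlib 3.10.9 were used.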

Additional observations from a re-analysis of the deposited data

Results flagged for a closer look

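Mmp2 and Mmp19 differed in opposite directions between cell types under biliary fibrosis, and neither difference between cell types was tested. Mmp2 was higher by 2.18 in HSC and by 5.08 in MC, each against the same cells without stated injury, and at -0.34 in PF against sham PF. Mmp19 was higher by 3.80 in HSC and at -0.91 in PF. The PF values are under the 4-fold rule, and against the VitA-GFP+ array they were 1.29 for Mmp2 and 0.01 for Mmp19. The HSC and MC pairs cross 3′ to 5′ Gapdh ratios of 5.68 and 1.75, and of 13.79 and 2.01, while the PF pair has 10.16 and 13.22. The part of this in the opposite directions was not tested.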

How the results depend on the processing

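Over 7 comparisons and their alternatives, 47 of 50 counts of members 4-fold apart stayed within 1.5 times the value given. Under a 2-fold rule the count was 4 in place of 1 for PF of biliary fibrosis against sham PF (Mmp7 and Mmp10 higher, Mmp3 and Mmp23 lower) and 4 in place of 2 for MC against whole liver. When the VitA-GFP+ array replaced sham PF, the count was 2 (Mmp7 and Mmp10). Of 290 member differences, 265 moved by 0.5 or less and 25 by more, and 0 called ones changed sign. Quantile normalization moved none of the 10 members by over 0.5. The shift of arrays to 1 median, which gave 70 of the 265, could not move any gene that far. Array medians lay between 5.31 and 5.68, so its outcome was fixed beforehand. Averaging probe sets, or preferring those without the suffixes _s_at, _x_at and _a_at, could not move the 5 members with 1 probe set. The latter rule also could not move Mmp9, Mmp14 and Mmp19, whose main probe sets carry no such suffix. The 265 thus include many values that could not have moved. With probe sets averaged, Mmp9 in HSC was at 1.29 and no longer 4-fold, and Mmp19 at 2.83. With the 75th percentile as minimum level, Mmp9 and Mmp13 dropped out in HSC, leaving 4 of 10.

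Over all genes, the share of higher among called genes in VitA-GFP+ cells against whole liver was 59.0%, and 47.0% after the shift to 1 median. That shift moved the median of all genes from -0.20 to -0.57 there, from 0.25 to 0.42 in MC of biliary fibrosis, and, against whole liver, from -0.06 to -0.22 in HSC, from -0.04 to -0.26 in MC and from 0.05 to -0.10 in sham PF. Higher and lower genes numbered 779 and 326 in the PF pair, against 1908 and 1397 under the 2-fold rule, 471 and 222 with the 75th percentile, and 795 and 810 with the VitA-GFP+ array. They numbered 1220 and 648 in the HSC pair (3093 and 1832, 661 and 209 under the first 2 of these), and 1283 and 967 in the MC pair (3552 and 2673, 843 and 527). With probe sets averaged the MC pair had 848 and 699. Against whole liver the 2-fold rule gave 3320 and 4219 in HSC, in place of 1767 and 2282, and 3329 and 4595 in MC, in place of 1816 and 2355. It gave 3661 and 3315 in VitA-GFP+ cells, in place of 2162 and 1501, and 4018 and 4181 in sham PF, in place of 2274 and 2215. No paired analysis was possible because each group has 1 array. Weak signal limits Mmp9 and Mmp13 most, which reach the array median on 2 of 8 arrays each.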

Other observations

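Among 12 collagens and other matrix substrates of these enzymes, a few were 4-fold higher in biliary fibrosis, and differences between cell types were not tested. PF had the cartilage proteoglycan Acan (3.35). HSC had elastin, Eln (3.61, other probe set 0.34) and versican, Vcan (3.44, with 8 probe sets from -3.47 to 3.44). MC had the basement membrane collagens Col4a1 (2.49) and Col4a2 (3.74). Col1a1 differed by 0.27 in PF, 1.79 in HSC and 0.09 in MC. The list's median difference was 0.16 in PF, 0.79 in HSC and 0.01 in MC, against -0.01, 0.13 and 0.25 over all genes.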
